A study of Mus musculus with 12 samples.

Results

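The peaks of histone H3 trimethylated at lysine 9 (H3K9me3) in mouse small intestine were described in crypts and in villi. All peaks of the crypts H3K9me3 list and of the villi H3K9me3 list were taken, 2126 and 2089 in number, which made 4215 of the 169081 peaks deposited for the series. Crypts are the epithelial pits that hold the stem and dividing cells, and villi are the projections covered by differentiated epithelium. The series used ChIP-Rx, chromatin immunoprecipitation sequencing with fly chromatin added as a spike-in, in intestinal tissue. The labels name the compartment and the antibody and give no genotype, strain, sex, age, treatment or number of mice. Both compartments received chromatin of Drosophila S2 cells, villi were scraped off with glass coverslips, and crypts were released with EDTA from the remaining tissue, so compartment and isolation method cannot be told apart. Each compartment is a mixture of cell types.

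There was 1 H3K9me3 library per compartment. No test between crypts and villi was therefore made, and no difference below has a replicate check. Neither list gives read numbers. The depth of both libraries is therefore unknown, and the 95% Wilson intervals given for shares cover counting error only. Neighbouring peaks are not independent of each other. The value given for each peak, called its score here, was taken as the −log10 p-value of the peak caller and is 10 or more in both lists, although a q-value on the same scale cannot be told apart from it in the files. Its median was 12.8 in crypts and 12.8 in villi, and 285 crypts peaks shared the commonest score of 10.7 while 268 villi peaks shared the commonest score of 10.9. Scores depend on depth, so they were read within a list and are set side by side only to describe a locus.

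H3K9me3 is a mark of constitutive heterochromatin, the compact and transcriptionally silent part of the genome. It is bound by HP1 proteins and covers pericentromeric satellite repeats, where SUV39H enzymes write it, and many endogenous retroviruses, where SETDB1 writes it after recruitment by KRAB zinc finger proteins and their partner TRIM28. It is also known from the 3′ exons of zinc finger genes themselves, from the clustered protocadherin genes, and from the methylated allele of imprinting control regions. In the text below a peak is called shared when it overlaps a peak of the other compartment by at least 1 bp, and crypts-only or villi-only when it does not. By that rule 837 crypts peaks and 870 villi peaks were shared, 1289 were crypts-only and 1219 were villi-only.

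Stretches of reference sequence under the peaks are given as examples of the DNA that the mark covered. All were read from GRCm38, the assembly that mm10 names, and are written 5′ to 3′. The highest-scoring blocks on chromosome 9 were tandem arrays. One unit of 234 bases, from chr9:3026472-3026705 on the plus strand, is printed with the bases in capitals that are identical 1 unit further on, which held for 72.2% of them. The exons of zinc finger genes carried another kind of repeat. Stretches of 252 bases, or 3 units of 84 bases, are shown from exon 4 of 4 of Zfp936 (chr7:43189806-43190057, plus strand) and exon 4 of 4 of Zfp873 (chr10:82060138-82060389, plus strand), with 3 copies of the linker between neighbouring fingers in capitals, 1 in each unit. At the imprinted genes Peg3 (chr7:6729973-6730172, minus strand) and Mest (chr6:30738095-30738294, plus strand), 200 bases near the start of a transcript, 249 and 42 bp from the nearest one, are shown with TGCCGC, the hexamer known to be bound by ZFP57 when methylated, in capitals on either strand. Within the peaks, the zinc finger and imprinted stretches were picked for having most matches to the pattern in capitals, so their matches follow from the choice. That of Mest lies in peaks of both compartments, and that of Peg3 in the crypts peak and outside the villi peaks. The last sequence is 200 bases of a villi-only peak in Ajap1 (chr4:153439471-153439670, plus strand), with CG in capitals. Its cluster was much denser in villi.
chromosome 9 unit: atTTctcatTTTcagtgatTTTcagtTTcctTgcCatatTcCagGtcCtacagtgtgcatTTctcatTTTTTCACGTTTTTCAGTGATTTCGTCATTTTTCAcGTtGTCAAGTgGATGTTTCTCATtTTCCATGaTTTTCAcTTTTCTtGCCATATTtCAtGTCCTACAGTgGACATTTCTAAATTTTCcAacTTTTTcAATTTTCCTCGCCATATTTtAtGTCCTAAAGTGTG
Zfp936: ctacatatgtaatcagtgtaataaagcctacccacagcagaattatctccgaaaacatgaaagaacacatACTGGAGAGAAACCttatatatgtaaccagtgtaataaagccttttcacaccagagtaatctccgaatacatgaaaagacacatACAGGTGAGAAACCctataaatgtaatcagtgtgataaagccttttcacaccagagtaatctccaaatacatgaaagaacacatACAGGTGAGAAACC
Zfp873: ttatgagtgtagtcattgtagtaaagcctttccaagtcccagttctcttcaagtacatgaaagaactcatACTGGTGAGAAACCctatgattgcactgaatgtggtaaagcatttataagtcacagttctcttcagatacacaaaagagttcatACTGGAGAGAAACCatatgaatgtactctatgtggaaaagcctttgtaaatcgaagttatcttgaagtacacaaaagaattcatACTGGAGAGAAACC
Peg3: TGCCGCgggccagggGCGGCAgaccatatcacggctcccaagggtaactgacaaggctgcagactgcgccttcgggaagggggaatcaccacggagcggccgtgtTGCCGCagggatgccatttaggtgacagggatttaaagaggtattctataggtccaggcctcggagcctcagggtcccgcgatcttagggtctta
Mest: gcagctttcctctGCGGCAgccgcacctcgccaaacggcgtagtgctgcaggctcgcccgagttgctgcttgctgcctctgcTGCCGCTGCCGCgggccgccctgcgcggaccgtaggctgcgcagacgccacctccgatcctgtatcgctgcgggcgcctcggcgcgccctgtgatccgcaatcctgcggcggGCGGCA
villi cluster peak: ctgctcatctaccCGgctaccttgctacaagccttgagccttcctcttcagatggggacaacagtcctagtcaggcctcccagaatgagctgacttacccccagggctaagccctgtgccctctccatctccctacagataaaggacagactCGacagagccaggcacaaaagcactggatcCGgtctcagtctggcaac

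Across chromosomes, H3K9me3 peaks were dense on chromosomes 4 and 17 and sparse on the sex chromosomes in both compartments. Over all assembled chromosomes there were 0.803 crypts peaks and 0.789 villi peaks per Mb of ungapped sequence. Chromosome 17 had 1.38 crypts and 1.25 villi peaks per Mb. Chromosome 4 had 200 crypts peaks and 275 villi peaks, or 1.32 and 1.81 per Mb, and thus held 9.41% of the crypts and 13.2% of the villi list on 5.74% of the sequence. Chromosome 16 went the other way, with 107 crypts and 72 villi peaks, or 1.13 and 0.758 per Mb. The X chromosome held 9 crypts and 14 villi peaks (0.0550 and 0.0856 per Mb). Of its peaks, 5 in crypts and 6 in villi lay within 25.991 kb at Mid1, a gene of a microtubule-associated ubiquitin ligase that spans the boundary of the pseudoautosomal region in laboratory mice. The Y chromosome held 12 crypts peaks, all of them shared, and 17 villi peaks, of which 15 were shared.

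**Figure D1:**
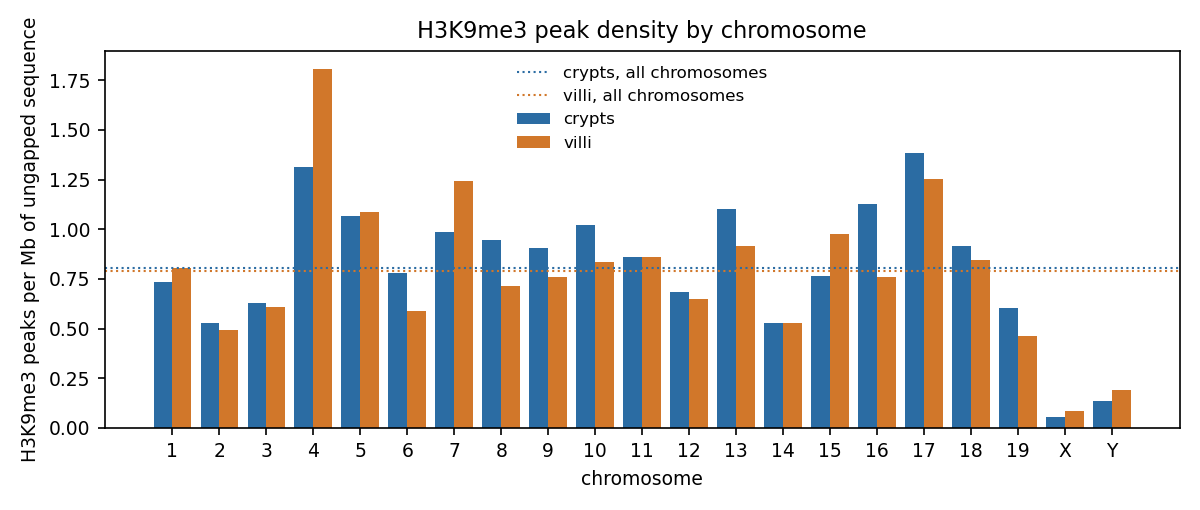
Bars give the number of H3K9me3 peaks per Mb of ungapped sequence on each chromosome (vertical axis, peaks per Mb; horizontal axis, chromosome) in crypts (blue) and villi (orange), 1 library each, and dotted lines give the value over all chromosomes. The villi bar of chromosome 4, at 1.81 per Mb, is the tallest, the crypts bar is the taller one on chromosome 16, and both bars of the X chromosome stay under 0.1.

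The excess of villi peaks on chromosome 4 came in blocks. When the genome was divided into 2737 windows of 1 Mb, 1020 held a crypts peak, 991 a villi peak and 656 both. In 9 windows villi had at least 10 peaks more than crypts, with 232 villi against 52 crypts peaks in all, and in 0 windows did crypts have 10 more than villi. The widest gap, 12 crypts against 57 villi peaks, was in the window of chromosome 4 that starts at 153000001, and the window before it had 13 against 52. The reverse gaps were small: 19 crypts against 10 villi peaks in the window of chromosome 10 that starts at 82000001, and 8 against 0 in the window of chromosome 1 that starts at 58000001.

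Clusters were defined within each list as chains of at least 5 peaks whose neighbours lay at most 100 kb apart. There were 41 in crypts, with 359 peaks or 16.9% of the list (15.4 to 18.5%), and 38 in villi, with 502 peaks or 24.03% (22.2 to 25.9%). They took 0.238% of the genome in crypts and 0.347% in villi, and the longest chain had 25 crypts and 57 villi peaks. Peaks that stood alone made similar shares, 1102 (51.8%) in crypts and 1071 (51.3%) in villi. The shared peaks were clustered to nearly the same extent in crypts (22.8%, 20.1 to 25.8%) and in villi (22.6%, 20.0 to 25.5%). Of the peaks found in a single compartment, 13.03% of the crypts-only (11.3 to 15.0%) and 25.0% of the villi-only peaks (22.7 to 27.5%) were in a cluster. Peaks without an overlapping counterpart were often near one: a peak of the other compartment lay within 100 kb of 36.1% of the crypts-only and 40.0% of the villi-only peaks, and within 10 kb of 16.1% and 16.6%.

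With both lists joined, 41 chains held 10 or more peaks, and the 10 with most peaks fell into a few kinds. The first kind held zinc finger genes, which encode DNA-binding proteins of the C2H2 type. The cluster chr4:147219252-147595275 had 25 crypts and 29 villi peaks around Zfp978, Zfp982, Zfp985 and Zfp988. The cluster chr4:146434997-146539259 had 13 crypts and 16 villi peaks around Zfp981 and Zfp992, and chr10:82003989-82228735 had 17 crypts and 9 villi peaks around Zfp873 and Zfp938. Each of these genes but Zfp988 overlapped a peak of both compartments. In the 3 clusters a median of 31.4 to 41.8% of the bases of a peak was soft-masked, that is, written in lower case in the reference sequence as repeats.

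Of the next 3, none held a zinc finger gene. At chr1:85011793-85340526 there were 19 crypts and 27 villi peaks over C130026I21Rik and A530032D15Rik, and a median of 33.6% of the 31-base words (31-mers) of these peaks occurred at 1 place in the genome. At chr11:3100116-3282348 there were 13 crypts and 20 villi peaks around Sfi1, which encodes a centrin-binding protein of the centrosome, with top scores of 232 in crypts and 454 in villi. The cluster chr16:20772471-21143426 had 18 crypts and 14 villi peaks and no protein-coding gene. It was also the only 1 of these 10 with H3K27me3 peaks of the Polycomb repressors, 9 in crypts and 26 in villi, and it held 10 H3K4me1 peaks in crypts and 7 in villi.

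The other 4 of the 10 were blocks of villi peaks with little repeat sequence. The cluster chr4:152497036-153127946, which starts within the cilium gene Nphp4, had 15 crypts and 57 villi peaks. Next to it, chr4:153330677-153870423 around Ajap1, which encodes an adherens junction-associated protein, had 10 crypts and 52 villi peaks. The cluster chr4:127744902-128395196, at Csmd2, had 5 and 28, and chr7:36769549-37569163, at the transcription factor genes Tshz3 and Zfp536, had 3 and 22. Among all 41 joined clusters, 6 had at least 3 times as many villi as crypts peaks, these 4 together with chr5:128116046-128379155 within Tmem132d (4 crypts and 16 villi peaks) and chr7:35956981-36628991 (3 and 17), and 0 had at least 3 times as many crypts as villi peaks.

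The 6 villi-dense clusters held less repeat sequence than most of the others. They were chosen by their peak numbers, so the numbers themselves, 40 crypts and 192 villi peaks over 3.56 Mb, are a description. The median soft-masked share of their peaks was 7.86 to 14.7% by cluster, against 36.4% of the whole genome and a median of 40.2% for the 35 clusters between the limits, which ranged from 2.43 to 81.7%. Low values among the 35 included 7.36% at chr15:87103586-87760933 around Fam19a5, with 7 crypts and 17 villi peaks, and 5.79% at chr15:87870659-88302876, with 5 and 14. The median share of 31-mers that occur at 1 place in the genome was 100% in them, against 68.9% in the 35. Their median GC content was 49.4%, against 45.4% in the 35 and 41.7% of the genome. The 6 spanned 8 protein-coding genes with 1 zinc finger gene among them, Zfp536, whereas the 35 spanned 103 with 33 zinc finger genes in 12 clusters. Villi peaks covered 2.09 to 13.1% of the span of each of the 6 and crypts peaks 0.208 to 2.51%. Scores of the villi peaks in them ran from 10.1 to 20.7, with medians of 10.9 to 11.9 by cluster, and none of the 6 clusters held an H3K4me3, H3K4me1 or H3K27me3 peak of either compartment. The villi-only peak printed above, chr4:153439096-153440046, had a score of 19.14 and 5.47% of soft-masked bases.

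**Figure D2:**
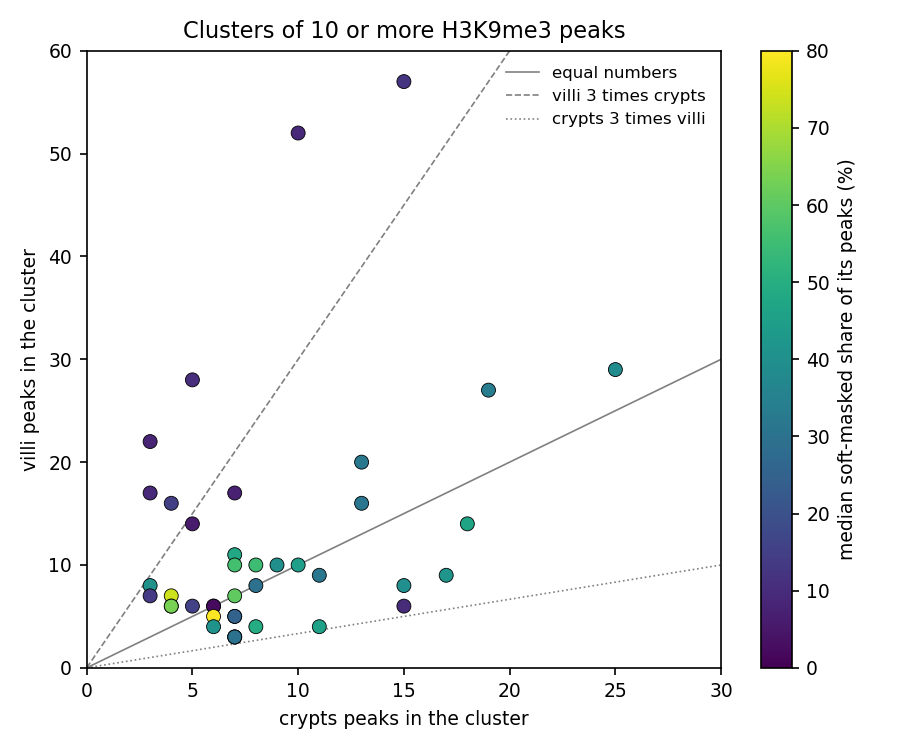
Each point is 1 of the 41 clusters of at least 10 H3K9me3 peaks with both lists joined, placed by its number of crypts peaks (horizontal axis) and villi peaks (vertical axis) and coloured by the median soft-masked share of its peaks in percent; the lines mark equal numbers and ratios of 3. The 6 points above the dashed line are dark, with medians of 7.86 to 14.7%, and no point lies below the dotted line.

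A cluster at Tiam1 had the same kind of sequence and the opposite balance. Tiam1 encodes an activator of the small GTPase RAC, and the cluster within it, chr16:89898009-90036601, chosen after its values were seen, had 15 crypts and 6 villi peaks with a median of 9.78% of soft-masked bases. Its top score was 22.0 in crypts and 12.1 in villi, and 4 peaks of each list were shared. With 15 against 6 it did not reach the ratio of 3.

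By number of H3K9me3 peaks, zinc finger genes came first among the gene lists. By share of genes with a peak, the clustered protocadherins, treated below, were higher. Of all 21951 protein-coding genes, 2.88% overlapped a crypts peak, 2.36% a villi peak and 1.47% a peak of each. Of the 426 zinc finger genes, taken by symbol (Zfp, Zscan, Zkscan, Zik and Zim), 86 overlapped a crypts peak (20.2%, 16.7 to 24.3%), 70 a villi peak (16.4%, 13.2 to 20.2%) and 62 a peak of each (14.6%, 11.5 to 18.2%). The genes with a peak in both made 72.1% of those in crypts and 88.6% of those in villi, as against 50.9 and 62.2% among all protein-coding genes. Zinc finger genes take 0.499% of the genome, and 121 crypts peaks (5.69%) and 94 villi peaks (4.50%) lay over them. The share was higher among shared peaks, at 8.12% of crypts and 8.05% of villi peaks, than among crypts-only (4.11%, 3.16 to 5.34%) and villi-only peaks (1.97%, 1.33 to 2.91%). Peak width was not matched between these classes.

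**Figure D3:**
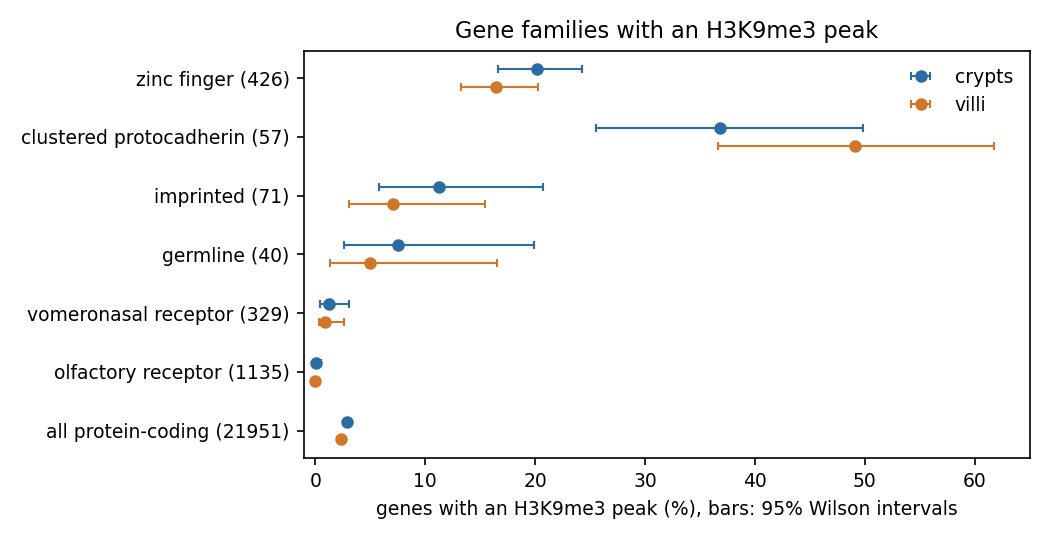
Points give the share of the genes of each family that overlap an H3K9me3 peak (horizontal axis, percent; vertical axis, family with its number of genes) in crypts (blue) and villi (orange), and bars are 95% Wilson intervals for counting error. Zinc finger genes, at 20.2 and 16.4%, lie to the right of all protein-coding genes, at 2.88 and 2.36%, while receptor families lie near 0. Many protocadherin genes overlap each other, so that 7 crypts and 11 villi peaks give the shares of 36.8 and 49.1%.

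By gene, the zinc finger genes with most peaks had them in both compartments. Zfp981 (chr4:146502027-146539395) had 5 crypts and 6 villi peaks, with top scores of 26.0 and 25.3. Zfp936 (chr7:43114229-43192109) had 5 and 4, with top scores of 20.7 and 21.1, and Zfp873 had 4 and 3, with 19.12 and 18.05. Zfp930 and Zfp943 had 4 crypts and 2 villi peaks each, Zfp110 had 2 and 3, Zfp942 had 3 and 2, and Zfp111 and Zfp386 had 2 in each. Zfp850 had 1 crypts and 4 villi peaks, whereas Zfp758 and Zfp951 had 3 and 1. In these 12 genes the top score was between 15.8 and 26.0 in crypts and between 10.9 and 25.3 in villi, and the score ranges of the compartments overlapped.

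The zinc finger genes with a peak in 1 compartment had 1 peak each, except Zfp935 and Zfp536. Crypts peaks alone were at 24 genes (5.63%) and villi peaks alone at 8 (1.88%), as against 1.41 and 0.893% of all protein-coding genes. Of the 24 with crypts peaks alone, the highest were Zfp160 with 25.7, Zfp329 and Zfp946 with 22.0 each, Zfp729a with 18.4, Zfp273 with 17.2 and, with 3 peaks, Zfp935 with 15.0. Of the 8 with villi peaks alone, the highest were Zfp949 with 21.4, Zfp976 with 13.8, Zfp521 with 13.1, Zfp385b with 12.8, and Zfp780b and Zfp937 with 11.9 each, and Zfp536 had 2 peaks of up to 11.7. By chromosome, 18 crypts and 13 villi genes were among the 107 on chromosome 7, 15 and 9 among the 47 on chromosome 17, 12 and 10 among the 32 on chromosome 4, and 11 and 7 among the 41 on chromosome 13. None of the zinc finger genes of chromosomes 1, 3, 6, 14, 15 and X, which number 4, 4, 17, 5, 11 and 9, overlapped a peak.

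Within zinc finger genes, many of the peaks lay over the 3′ end. However, 41 of 121 crypts (33.9%) and 27 of 94 villi peaks (28.7%) overlapped introns alone. The midpoint of the peak fell in the last exon in 52.1% of the crypts and 60.6% of the villi peaks. The last exon takes 10.7% of the length of these genes and was overlapped by 71 of 121 crypts peaks (58.7%, 49.8 to 67.1%) as well as 60 of 94 villi peaks (63.8%, 53.8 to 72.8%). In other protein-coding genes the last exon takes 3.63% of the length and was overlapped by 10.7% of the crypts peaks (8.51 to 13.3%) and 11.6% of the villi peaks (9.25 to 14.5%). Shared peaks reached the last exon more often, at 72.1% of those in crypts (60.4 to 81.3%) and 72.9% of those in villi (61.5 to 81.9%), than did crypts-only (41.5%, 29.3 to 54.9%) and villi-only peaks (37.5%, 21.2 to 57.3%). The overlaps were not matched for peak width. Midpoints fell in the last exon in 64.7% of shared crypts, 35.8% of crypts-only, 70% of shared villi and 33.3% of villi-only peaks. By the midpoint of each peak, when each gene was cut into 10 equal parts, the last held 27.9% and the one before it 23.0% of the crypts peaks, and the same parts held 24.5 and 27.7% of the villi peaks.

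**Figure D4:**
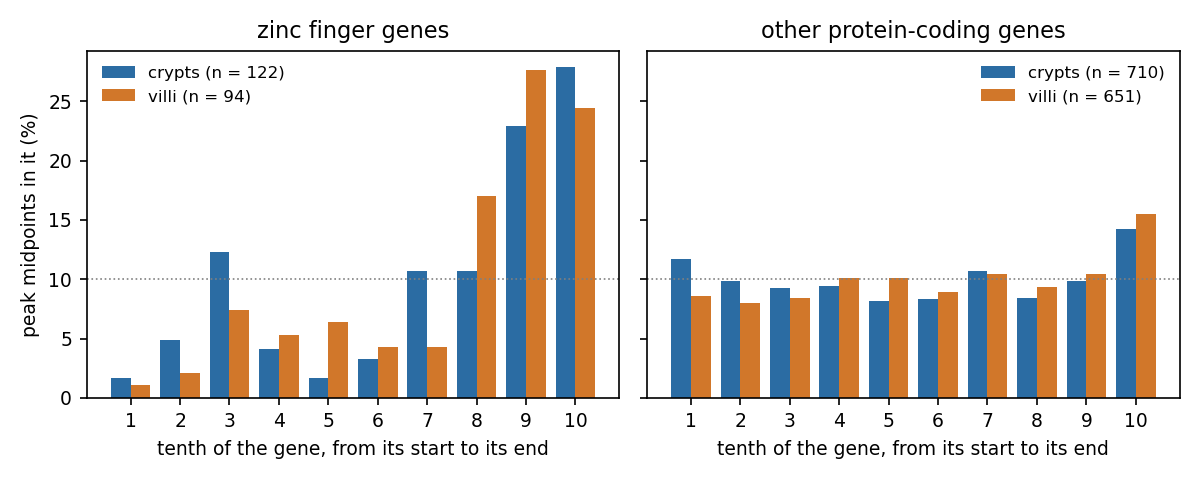
Bars give the percent of peak midpoints (vertical axis) in each of 10 equal parts of the gene from its start to its end (horizontal axis) for zinc finger genes (left) and other protein-coding genes (right) in crypts (blue) and villi (orange), n being pairs of a gene and a peak; the dotted line is an even spread. In zinc finger genes the last 2 parts hold 23.0 and 27.9% of the crypts and 27.7 and 24.5% of the villi midpoints, while in other genes the tallest bar is the last, at 14.2 and 15.5%.

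The last exon of a zinc finger gene encodes the array of fingers, and the peaks showed its repeat. Each peak of at least 600 bp was compared with itself at lags of 20 to 500 bp, and the lag with most identical bases was noted. It was 84 bp, the length of a finger with its linker, or a multiple of 84 in 63 of 69 crypts peaks over such exons (91.3%, 82.3 to 96.0%) and 50 of 55 villi peaks (90.9%, 80.4 to 96.1%), as against 3.39% of the other crypts and 3.84% of the other villi peaks. The linker sequence ACNGGNGANAANCC, sought on both strands, was in 62 of 71 crypts peaks over these exons (87.3%) and 50 of 60 villi peaks (83.3%), and in 5.32% of all crypts and 4.21% of all villi peaks. It was counted apart from TGCCGC, which is treated further on. The 3 linker matches of Zfp936 and of Zfp873 in capitals above are of this form.

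Genes with long finger arrays carried the mark more often. Annotated coding sequences were translated, and 580 genes with at least 3 matches to the C2H2 pattern were found. Of the 199 genes with 3 to 7 matches, 5.53% overlapped a crypts peak (3.11 to 9.63%) and 4.52% a villi peak (2.40 to 8.37%). The shares were 25.6 and 15.6% of the 160 genes with 8 to 11 matches, and 28.1% (22.5 to 34.3%) and 23.98% (18.8 to 30.03%) of the 221 genes with 12 or more. Among the genes taken by symbol, the median was 12 matches in those with a crypts peak and 9 in those without a peak. H3K4me3, a mark of active promoters, was about as frequent at the start of zinc finger genes with H3K9me3 peaks as at that of those without: 53 of the 62 zinc finger genes with a peak in both compartments had an H3K4me3 peak at a start site in crypts and 53 in villi (85.5%, 74.7 to 92.2%), beside 82.5% (78.1 to 86.2%) and 81.3% (76.8 to 85.2%) of the 332 zinc finger genes without a peak.

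The clustered protocadherins, neuronal adhesion proteins whose genes lie in 3 neighbouring groups on chromosome 18, were examined as another family of repeated genes. In the alpha and gamma groups each variable exon has its own promoter and is spliced to constant exons at the far end. Genes of these groups therefore overlap, and 1 peak can lie in the spans of several, unlike in the beta group. Of the 57 genes, 21 overlapped a crypts peak and 28 a villi peak, through 7 crypts and 11 villi peaks. These peaks were 0.329% of the crypts and 0.527% of the villi list, over genes that take 0.196% of the genome. By the longest coding exon, which is particular to each gene, 6 genes had a crypts peak, 10 a villi peak and 3 both. Over all 21866 protein-coding genes with a coding exon, the longest one had a crypts peak in 0.613%, a villi peak in 0.59% and both in 0.402%, not matched for exon length. The 3 protocadherin genes with both were in the gamma group: Pcdhgb5 with scores of 13.9 in crypts and 13.8 in villi, Pcdhgb7 with 10.98 and 21.8, and Pcdhga12 with 22.7 and 19.14. Crypts alone had a peak over that exon of Pcdha3 (11.7), Pcdhgb6 (15.0) and Pcdhga10 (10.7). Villi alone had one over that exon of Pcdha1 (13.8), Pcdha7 (12.8), Pcdhb8 (11.9), Pcdhb12 (10.3), Pcdhb22 (11.9), Pcdhgb4 (11.9) and Pcdhga11 (12.8). Of the 22 beta group genes, 3 thus had such a peak in villi and 0 in crypts, and the scores of 10.3 to 11.9 were close to the lowest of the list. H3K27me3 peaks lay over the same kind of exon in 4 of the 57 genes in crypts and 7 in villi, among them Pcdhgb7 in both, while 5.19 and 6.81% of all protein-coding genes had one over the longest coding exon.

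Imprinted genes, expressed from 1 parental allele, had peaks at a few loci. Of 71 listed genes, 8 overlapped a crypts peak (11.3%, 5.82 to 20.7%), 5 a villi peak (7.04%, 3.05 to 15.4%) and 3 a peak of each. Of all protein-coding genes, 2.88, 2.36 and 1.47% did. These shares were not matched for gene length, with a median of 31.9 kb in the imprinted and 17.4 kb in all protein-coding genes. In the upper 50% of each list by score, 4 had a crypts and 3 a villi peak. Peg3, a zinc finger gene transcribed from the paternal allele, had a crypts peak at chr7:6727852-6730399 with a score of 22.0, which ended 22 bases from its nearest start. The overlapping villi peak, chr7:6727556-6728988, had a score of 10.1, and a villi-only peak at chr7:6707957-6708509 had 12.8. At Mest, which encodes a hydrolase family protein, the crypts peak chr6:30736980-30739342 had a score of 11.3 and the villi peak chr6:30737456-30738713 a score of 14.8, and both covered a start. Ppp1r9a, a gene of a neuronal actin-binding protein, had a crypts peak of 15.0 and a villi peak of 12.8, which lay 86968 and 86953 bp from its nearest start.

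Other imprinted genes had peaks in a single compartment, with scores of 16.8 or less. In crypts alone these were Airn, the noncoding RNA that silences Igf2r, with 3 peaks of up to 16.8, Gnas with 11.7 and 11.9, its antisense partner Nespas under the first of these, the growth factor receptor-binding gene Grb10 with 15.0 and the zinc finger gene Plagl1 with 10.4. In villi alone they were Mkrn3 with 11.6 and Impact with 10.4. The hexamer TGCCGC, on either strand, was in 8 of the 16 peaks over imprinted genes (50%, 28.0 to 72.0%), at 1.99 matches per kb. It was in 589 of all 4215 peaks (14.0%, 12.96 to 15.1%), at 0.175 per kb. Both counts join the lists, so the overlapping crypts and villi peaks of Peg3 and of Mest count separately. The intervals treat them as independent. The 8 peaks had a GC content of 54.2 to 66.9%, beside medians of 45.6% in all crypts and 47.3% in all villi peaks. The part of base composition in the matches was not tested. The crypts peak of Peg3 held 8 matches and the villi peak, which stops short of the start, 1, while the peaks of Mest held 12 and 10. A match is a description of the letters and not evidence of binding.

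Olfactory receptor genes had a smaller share with a peak than the 2.88 and 2.36% of all protein-coding genes in crypts and villi. The intervals of vomeronasal receptor and germline genes included these values. The median gene length was 6.00 kb in olfactory receptor, 10.3 kb in vomeronasal receptor and 34.9 kb in germline genes, beside 17.4 kb in all. The shares were not matched for length. Of 1135 olfactory receptor genes, 1 overlapped a crypts peak (0.0881%, 0.0156 to 0.497%), Olfr539 with a score of 11.05, and 0 a villi peak (upper limit 0.337%), although these genes lie in large silent clusters. Of 329 vomeronasal receptor genes, 4 overlapped a crypts peak (1.22%, 0.474 to 3.08%) and 3 a villi peak (0.912%, 0.311 to 2.65%), the 3 in both being Vmn1r191, Vmn2r16 and Vmn2r63. Of 40 genes expressed in the germline and silenced elsewhere, crypts had peaks at 3 (7.5%, 2.58 to 19.9%), Slc25a31 with a score of 14.7, Brdt with 10.7 and Stag3 with 14.7. Villi had peaks at 2 of them (5.0%, 1.38 to 16.5%), Mov10l1 with 15.9 and Piwil1 with 12.8, and 0 of the 40 had a peak in both (upper limit 8.76%), as against 1.47% of all protein-coding genes.

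Overlaps of H3K9me3 with the marks of active chromatin were few. The part of the genome under each mark, given beside them, counts bases, whereas an overlap of 1 bp was enough for a peak. These are unlike measures, and peaks placed at random would overlap a mark more often than its part of the genome. Random placement was not tested. In number, 12 crypts peaks (0.564%, 0.323 to 0.984%) and 13 villi peaks (0.622%, 0.364 to 1.06%) overlapped an H3K4me3 peak of the same compartment, a mark that covered 1.11 and 1.13% of the genome. In crypts they included the peak at Peg3, and in villi those at Peg3, Mest, Impact and Mkrn3. H3K4me1, a mark of enhancers, was overlapped by 75 crypts peaks (3.53%, 2.82 to 4.40%) and 51 villi peaks (2.44%, 1.86 to 3.196%) and covered 3.79 and 3.85% of the genome. By class, 2.39% of shared crypts (1.55 to 3.66%), 4.27% of crypts-only (3.29 to 5.51%), 3.68% of shared villi (2.62 to 5.15%) and 1.56% of villi-only peaks (1.00 to 2.42%) overlapped H3K4me1. H3K27me3 was overlapped by 47 crypts (2.21%, 1.67 to 2.93%) and 63 villi peaks (3.02%, 2.36 to 3.84%) and covered 0.765 and 1.34%.

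Near start sites, the peaks were at a small group of genes. Protein-coding genes with a peak at most 1 kb from a start numbered 83 in crypts, 68 in villi and 44 in both. Of the 44, 16 (36.4%) also had H3K4me3 at a start site in crypts and 26 (59.1%) in villi, as against 57.7 and 57.9% of all protein-coding genes, and 15 (34.1%) had it in both, as against 56.6%. The 44 included 11 predicted genes under the 5 highest peaks of the list, and without these 16 of 33 (48.5%) had H3K4me3 in crypts and 16 in villi. Zinc finger genes were 6 of the 44 (13.6%), as against 1.95% of all. Of the 15, the 10 with the highest crypts scores were B230307C23Rik (34.9 in crypts and 19.14 in villi), Tmem267 and 3110070M22Rik under 1 peak (28.3 and 30.6), the cytokine receptor gene Il3ra (28.2 and 22.0), Catsperg1 of the sperm calcium channel (24.4 and 19.14), Zfp850 (23.8 and 10.1), Zfp950 (23.5 and 13.8), Mid1 (21.9 and 24.8), Zfp873 (19.12 and 13.95) and the phosphatase subunit gene Ppp2r3d (17.4 and 12.5). In these genes both marks were within 1 kb of a start, which does not place them on the same nucleosomes, cells or alleles.

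Repeat content was highest at the median in crypts-only peaks, and peaks with little repeat sequence were most frequent among villi-only peaks. The median soft-masked share was 41.7% in shared crypts peaks (38.3 to 43.8%, a 95% interval from the ranks of the peaks), 47.5% in crypts-only (46.0 to 49.7%), 40.3% in shared villi (37.9 to 42.3%) and 37.2% in villi-only peaks (34.5 to 40.2%), against 36.4% of the genome. When each list was cut by score into 3 equal parts, crypts-only peaks had a higher median than shared crypts peaks in all 3, at 46.6 against 36.3% in the lowest and 48.0 against 42.5% in the highest. In villi the order turned with the score: villi-only peaks had 33.3 against 41.9% in the lowest part and 43.2 against 39.3% in the highest. Peaks with under 10% of soft-masked bases made 9.68% of shared crypts (7.85 to 11.9%), 9.15% of crypts-only (7.70 to 10.9%), 11.4% of shared villi (9.44 to 13.7%) and 21.2% of villi-only peaks (19.04 to 23.6%). The 6 villi-dense clusters held 174 of the villi-only peaks (14.3%), of which 94 had under 10% of soft-masked bases. The other 1045 villi-only peaks had a median of 43.3% and 15.8% of them were under 10%, so that villi-only peaks outside these clusters were closer to the other classes. Peaks almost wholly of repeats, over 90% soft-masked, made 3.11, 5.51, 3.79 and 3.86% of the 4 classes in the same order.

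**Figure D5:**
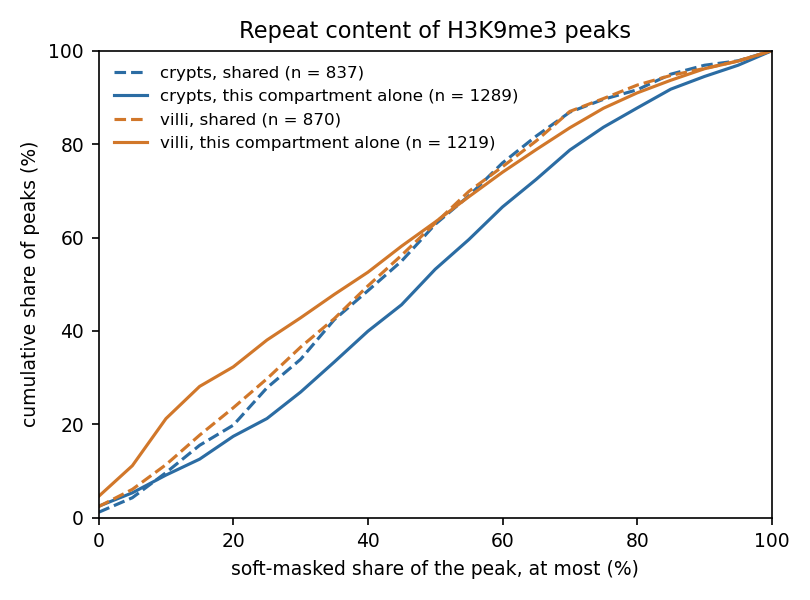
Lines give the cumulative percent of peaks (vertical axis) whose soft-masked share is at most the value on the horizontal axis (percent), for shared peaks (dashed) and peaks of 1 compartment (solid) in crypts (blue) and villi (orange). The villi-only line is above the others at low shares, with 21.2% of peaks under 10%. The crypts-only line is below the others from about 10% on, and the shared lines of both compartments run close together.

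Other features differed between shared peaks and the rest and between villi-only and crypts-only peaks. Wide peaks meet the overlap rule for shared peaks more easily, so differences in width and score can follow in part from that rule. The median width was 1226 bp for shared crypts, 1024.5 bp for shared villi, 725 bp for crypts-only and 674 bp for villi-only peaks. Shared peaks also scored higher: more of them had a score over 20, namely 22.0% in crypts and 17.5% in villi against 2.48 and 2.13%. An exon of a protein-coding transcript was under 17.0% of shared crypts and 16.6% of shared villi peaks but under 7.53% of crypts-only and 6.48% of villi-only peaks. A protein-coding gene was under 36.6 and 37.0% of the shared peaks, 34.8% of crypts-only (32.3 to 37.5%) and 28.5% of villi-only peaks (26.0 to 31.1%). The exon and gene shares were not matched for peak width, and the part of width in them was not tested. The median distance to the nearest start site was 22571 bp in shared crypts, 21818 bp in shared villi, 25638 bp in crypts-only and 58431 bp in villi-only peaks. Median GC content was 45.7, 46.4, 45.5 and 48.1% in that order. The ratio of observed to expected CG was low in every class, from 0.191 to 0.229, near the 0.190 of the genome.

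Most peaks were over sequence that could be placed. In 84.7% of shared crypts, 86.7% of crypts-only, 85.4% of shared villi and 89.3% of villi-only peaks the median 31-mer occurred at 1 place in the genome. The authors' aligner reported 1 place for a read that fits several, so a peak over a repeated sequence marks a family of copies and not a given copy. Peaks whose median 31-mer had over 100 copies were 4, 8, 3 and 2 in number in these classes.

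The highest scores of both lists were at blocks that were mostly soft-masked as repeats. The 5 highest shared pairs were chr2:98666284-98667286 at Gm10800, with scores of 6786 in crypts and 6789 in villi, chr14:19415722-19419554 at Gm21738 (4216 and 5169), and chr9:3021472-3038299 (2360 and 2878), chr9:3000014-3014160 (2217 and 2673) and chr9:3014686-3020950 (1304 and 1651), given by their crypts coordinates. From 83.6 to 96.9% of their bases in crypts were soft-masked. The chromosome 9 blocks repeated every 234 bp, and over the largest 75.9% of bases equalled the base 1 unit on, against a median of 31.2% at other lags. The best lag was 351 bp in the chromosome 14 peak and 485 bp, near the end of the lags searched, in the chromosome 2 peak, with 57.7 and 59.8% of identical bases against medians of 30.8 and 28.5%. The 3 villi peaks of chromosome 9 and that of chromosome 14 also overlapped H3K4me3 peaks, and the part of unplaced copies in these scores was not tested. The ribosomal RNA locus chr17:39843036-39848783 had scores of 611 and 896 with 4.24% of soft-masked bases.

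The highest peaks of a single compartment had far lower scores. In crypts they were chr6:124552505-124553335 with 32.2, chr16:30460953-30462502 with 26.96 and chr17:71421254-71422953 with 25.8, the last within Smchd1, which encodes a repressor of the inactive X chromosome and of imprinted genes. In villi they were chr3:5860370-5860766 with 154, chr13:44869573-44869960 with 43.2, within the Polycomb cofactor gene Jarid2, and chr4:122022212-122023642 with 34.5. The first of these villi peaks was 397 bp long and the one in Jarid2 388 bp, and 25.6 and 39.9% of their 31-mers occurred at 1 place in the genome, so the position of both is uncertain.

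Some repeated sequences lay under peaks far more often than their share of the genome. Among 31-mers with at least 100 copies in the genome and at least 20% of these in a peak, 4 that stand for different sequences were chosen after the values were seen. They are shown in capitals with 35 bases to each side, taken from shared peaks at chr11:116718571-116718671 and chr10:82051485-82051585 (minus strand) and at chr8:26870667-26870767 and chr8:26870789-26870889 (plus strand). The scores there were 18.96 in crypts and 18.05 in villi for element 1, 18.1 and 18.05 for element 2, which lies in Zfp873, and 26.8 and 22.9 for elements 3 and 4, which lie in 1 peak in 2310008N11Rik.
element 1: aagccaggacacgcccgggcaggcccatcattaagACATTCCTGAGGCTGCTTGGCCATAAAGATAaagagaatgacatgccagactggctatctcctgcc
element 2: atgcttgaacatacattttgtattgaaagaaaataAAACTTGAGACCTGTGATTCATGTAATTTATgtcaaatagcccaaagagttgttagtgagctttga
element 3: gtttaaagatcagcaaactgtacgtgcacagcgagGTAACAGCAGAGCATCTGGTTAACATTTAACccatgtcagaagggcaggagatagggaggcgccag
element 4: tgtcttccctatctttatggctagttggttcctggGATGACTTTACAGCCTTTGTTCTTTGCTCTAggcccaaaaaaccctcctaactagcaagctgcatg

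Peaks of either list covered 0.140% of the genome. Of the 153 copies of element 1, 64 (41.8%) were in a peak of either list, 49 in crypts and 39 in villi. Of the 223 copies of element 2, 58 (26.0%) were, 52 in crypts and 31 in villi. Of the 108 copies of element 3, 52 (48.1%) were, 43 in crypts and 32 in villi, and of the 113 of element 4, 31 (27.4%), 29 in crypts and 19 in villi. Since the 31-mers were chosen for such shares, these values describe them and test nothing. Elements 1 and 2 often lay near each other, 74 of 153 copies of element 1 having element 2 within 10 kb, and 27 of 108 copies of element 3 had element 4 as near. A peak with any of the 4 made up 8.36% of shared crypts (6.67 to 10.4%), 7.47% of shared villi (5.90 to 9.41%), 4.34% of crypts-only (3.36 to 5.60%) and 1.97% of villi-only peaks (1.33 to 2.91%). Shared peaks were wider at the median, and these shares were not matched for width. No repeat annotation was used here, so neither these elements nor the highest-scoring blocks are named.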

How the data were processed

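Peaks of H3K9me3 were analysed from crypts and villi of mouse small intestine, 1 library each. Per the methods, the authors aligned read pairs with Bowtie 1.1.2 to mm10 and dm6, with 1 place reported per read, removed PCR duplicates with samblaster and called peaks with MACS2 2.1.1 at a −log10 p-value threshold of 10. The input of the same compartment was the control by the names of the lists. The deposited score was taken as −log10 of the p-value, because no list has a value under 10, although a q-value cannot be told apart, and the spike-in does not enter it. Amounts of chromatin and kinds of beads differ between the methods and the labels. Peak lists of the H3K4me3, H3K4me1 and H3K27me3 libraries were used for overlaps with other marks. The H3K9me2 lists, of 9 peaks in all, were not used, and no file of the inputs was analysed here.

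Overlaps, chains of peaks and repeat counts were computed with Python 3.11.15, NumPy 2.4.6, pandas 2.3.3, SciPy 1.17.1, pysam 0.24.0 and Numba 0.67.0, and figures were drawn with Matplotlib 3.10.9. The overlap and chaining code was tested on simulated data with planted answers. Sequence, soft-masked bases and copies of 31-mers came from the reference sequence of GRCm38, and genes from GENCODE M21. How the reference was masked is not given in the sources used here. Zinc finger genes were taken by symbol, since no table of proteins was used. Groups of 1 library allowed no test. Named were, per gene list, up to 12 genes with peaks in both compartments and up to 6 for each compartment with peaks there alone (most peaks or highest score before others), the 10 joined clusters with most peaks, up to 10 genes with H3K9me3 and H3K4me3 at a start site, the 5 highest shared pairs and the 3 highest peaks of each compartment alone. Items named outside this rule, such as Zfp536, Tiam1, Mid1, the protocadherin genes with a peak over the longest coding exon, further clusters and the ribosomal RNA locus, were chosen after their values were seen. The members and the lists were chosen with earlier results of these data known. Alternatives covered score, merging, overlap rule, gaps, gene margins and the part of the peak used.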

Additional observations from a re-analysis of the deposited data

How the results depend on the processing

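No paired analysis was possible because there is 1 library per group and no result comes from a test between samples. Leaving out a replicate was not possible for the same reason. Of the values recomputed under alternatives, 60 moved by less than the counting interval or, for counts, by less than 1.5 times, and 22 moved by more. Asking for a reciprocal overlap of 50% lowered the shared part to 29.5% of crypts and 30.01% of villi peaks, and a counterpart within 1 kb raised that of crypts to 41.5%. The clustered shares in crypts and villi were 12.2 and 18.97% in the upper 50% of each list by score, 14.3 and 20.3% after merging peaks under 1 kb apart, 12.4 and 19.05% with gaps of at most 50 kb, 23.0 and 30.2% with gaps of at most 200 kb, and 8.42 and 17.7% with at least 10 peaks. Villi had the higher share under each of these.

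Leaving out the 6 villi-dense clusters was chosen after seeing the data, and since these clusters were picked for their villi peaks, lower villi values follow in part from the choice. The clustered share was then 16.1% in crypts and 16.3% in villi, the shared part of villi peaks 44.9%, and the median soft-masked share of villi-only peaks 43.3% beside 48.3% in crypts-only. In the upper 50% by score, that median was 46.0% in crypts-only and 40.9% in villi-only peaks, beside 43.3 and 40.4% in shared peaks of the same compartments, so that villi-only peaks were no longer below shared ones, and imprinted genes with a peak were 4 in crypts and 3 in villi. Protocadherin genes fell to 6 and 10 by the longest coding exon, also an alternative added after seeing the data, because a peak no longer counted for every gene whose span holds it. Over the alternatives the number of zinc finger genes with a crypts peak was 61 at the lowest and 114 at the highest, and with a villi peak 56 and 87, the highest being those by translated coding sequence in place of symbols, which was added after seeing the data too.

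The depth of the libraries is unknown, and no list shows which places fell just short of the threshold. The median score of compartment-only peaks was 11.7 in crypts and 11.9 in villi, beside 12.8 in both whole lists. The length of the sheared fragments limits the placement of a peak within an exon.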

Other observations

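Values for 4 smaller clusters of H3K9me3 peaks follow; the clusters were chosen after their values were seen and stand for no group of genes. Around the natural killer cell receptor gene Klrb1 and its neighbours Clec2h and Clec2i, chr6:128644531-128921495 held 7 crypts and 3 villi peaks, of which 2 in each were shared. At Sp110 and Sp140, genes of nuclear body proteins linked to interferon, chr1:85584757-85625462 held 4 crypts and 6 villi peaks. The span chr6:149235011-149586360 includes Resf1, a gene needed to silence retroelements, and had 9 crypts and 10 villi peaks. The span chr9:22147228-22318110 includes Zfp809, whose protein silences retroviral DNA, and had 7 crypts and 5 villi peaks, although Zfp809 itself overlapped none. Genes with many peaks outside zinc finger families were C130026I21Rik with 13 crypts and 18 villi peaks, Sfi1 with 11 and 18, Tmem132d with 4 and 19, and Tiam1 with 15 and 6.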
